A study of Mus musculus with 2 samples.

Results

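The epidermal growth factor (EGF) receptor family and its ligands were examined in cells sorted from mouse liver and labelled as mesothelial. Mesothelium is the sheet of epithelial-like cells on the outer surface of the organ. The family was taken as 10 genes, 4 receptors (Egfr, Erbb2, Erbb3 and Erbb4) and 6 ligands (Hbegf, Areg, Ereg, Btc, Tgfa and Nrg1), out of 18666 genes with a symbol. The genes were chosen by symbol, and all 22 probe sets that the deposited table assigns to them were taken, of 45037 probe sets other than controls. RNA came from C57BL/6 mice at 2 stages, with 1 array for each. The E12.5 group was embryonic liver of day 12.5, sorted with an antibody to PCLP1 (the product of Podxl), and the adult group was liver of mice aged 8 weeks, sorted with an antibody to Mesothelin. Both livers were digested with collagenase, and 10 ng of total RNA went through 2 rounds of amplification before hybridisation. The number of animals behind each array is not given in the labels. With 1 array for each group there was no replicate error to set a difference against, no test was run. The effects of stage, of the antibody used for sorting and of the array cannot be told apart.

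The receptors are membrane tyrosine kinases that signal as pairs. Egfr is the receptor for TGF-alpha, amphiregulin and EGF, while HB-EGF, betacellulin and epiregulin bind both Egfr and Erbb4. Nrg1 binds Erbb3 and Erbb4, Erbb2 has no known soluble ligand of its own, and Erbb3 has little kinase activity and signals through its partner. The ligands are made as membrane-bound precursors that are released by metalloproteases of the ADAM family. In liver, Egfr ligands are known as hepatocyte mitogens, and in cultured human peritoneal mesothelial cells HB-EGF is known to promote migration.

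In these data the receptors Egfr and Erbb3 and the ligand Tgfa had higher signals on the adult array, Ereg had a higher signal at E12.5, and Hbegf was present on both arrays within 2-fold. Areg, Nrg1 and Erbb4 were not detected on either array. A probe set was taken as detected where the deposited call was present. Signals are in arbitrary units, and adult signals were divided by the constant, 0.680, with which the authors' ratio equalises the medians of the arrays. All differences are on the log2 scale and are positive where E12.5 had the higher signal. A gene with several probe sets was represented by its brightest set (by mean log2 signal) of those present on at least 1 array.

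Of the 10 genes, 4 were present on both arrays (Egfr, Erbb3, Hbegf and Ereg), 3 on the adult array alone (Erbb2, Btc and Tgfa) and 3 on neither. Of the 7 detected genes, 3 had an adult signal at least 2-fold higher, against a background of 17.0% of all 13165 detected genes, and 1 passed 2-fold towards E12.5, against 29.1%. Among the 4 genes present on both arrays the counts were 2 and 1, and the background was 13.2% and 27.0% of 10446 genes. A gene present on 1 array alone passed the detection filter through the array where it was bright, so these counts describe the genes and support nothing beyond that. The median difference of the genes present on both arrays was 0.38, and the differences relative to it are given beside those as measured.

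**Figure D1:**
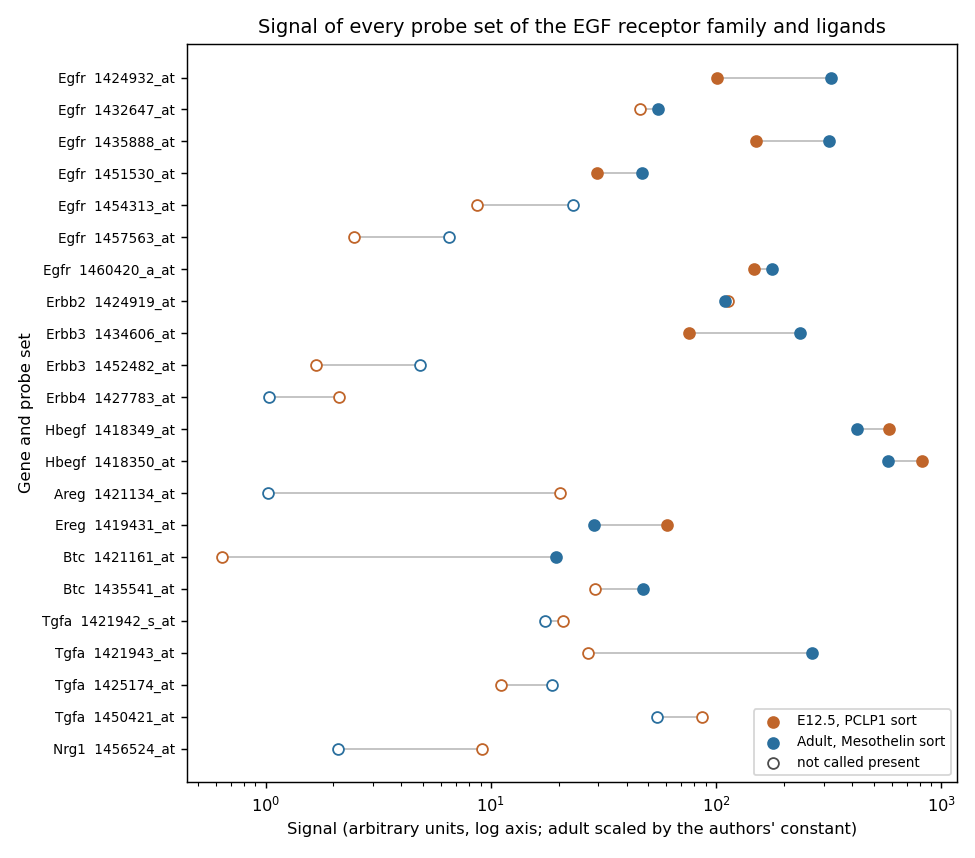
Signal of each of the 22 probe sets on the E12.5 array (orange) and the adult array (blue), on a log axis in arbitrary units; filled points were called present and open points were not. Only Egfr and Hbegf had more than 1 probe set present on both arrays, and 9 probe sets were called absent on both. Brightness cannot be compared between probe sets, only between the arrays.

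Egfr (Entrez gene 13649) was measured by 7 probe sets, of which 4 were present on both arrays. The representative set, 1435888_at, gave 149.9 at E12.5 and 317 in adult, a difference of -1.08, or 2.11-fold higher in adult. Relative to the median gene the difference was -1.46, and 12.1% of genes present on both arrays lay further towards adult. Set 1424932_at had 100.4 and 322, 3.21-fold higher in adult. Set 1451530_at had 29.5 and 46.7 (1.58-fold), and set 1460420_a_at had 147 and 177 (1.21-fold). All 4 sets thus had the higher scaled signal on the adult array, but only 2 of them by 2-fold or more. Their differences ranged from -1.68 to -0.27, with a mean of -0.92 and an SD of 0.60 between sets (n = 4 probe sets on the same arrays, not replicates). Without scaling, set 1460420_a_at was higher at E12.5 instead, by 0.29, and the representative set fell inside 2-fold (-0.52). Another set, 1432647_at, was present in adult alone at 55.4 against an absent call at 45.7, and its direction likewise turned without scaling (0.28). The remaining 2 sets were absent on both arrays.

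Amplification of this kind is primed at the 3′ end. In the control sets for Gapdh the signal near the 3′ end exceeded that near the 5′ end 2.07-fold at E12.5 and 6.81-fold in adult. For beta-actin these ratios were 1.93 and 3.47, and the part of this difference in the spread between Egfr sets was not tested. In whole sorted populations, a lower signal from fewer cells of a type cannot be told apart from less RNA per cell.

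The 250 bases before the start of Egfr are shown because Egfr was the receptor with the most probe sets behind its difference. The sequence is that of RefSeq (GRCm38.p6, chr11:16751953-16752202, plus strand), and the capitals mark the GC box GGGCGG on the opposite strand, where it reads CCGCCC.
Egfr: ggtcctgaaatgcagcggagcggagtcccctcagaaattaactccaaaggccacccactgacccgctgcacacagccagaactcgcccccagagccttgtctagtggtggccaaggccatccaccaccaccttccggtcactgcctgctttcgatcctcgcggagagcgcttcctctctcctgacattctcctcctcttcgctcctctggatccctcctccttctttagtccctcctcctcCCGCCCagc
The window held 60.8% G and C and 11 CpG pairs, against medians of 52.4% and 6 over 32851 windows of the same length. The GC box, a match for Sp-family factors, lay from base -9 to -4 before the start, and the search on both strands found one in 32.7% of all windows. It found neither of the other motifs searched, TATAAA (12.4% of windows) and TGACGTCA (1.55%), in the Egfr window. Matches are descriptions of letters and not sites of binding.

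Erbb3 (Entrez gene 13867), the kinase-impaired neuregulin receptor, gave 76.0 at E12.5 and 235 in adult with set 1434606_at. The difference was -1.63, or 3.09-fold higher in adult (-2.00 relative to the median gene), and 7.48% of genes present on both arrays lay further towards adult. Of the Egfr sets, 1424932_at had a difference of about the same size (-1.68). A second Erbb3 set, 1452482_at, was absent on both arrays, so the value rests on 1 probe set.

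Erbb2 (Entrez gene 13866), the shared partner of the other receptors, had nearly the same signal on both arrays, 113 at E12.5 and 109 in adult. The call was absent at E12.5 and present in adult, so the gene was detected in adult alone although its signal there was not the higher one, and no fold is given. The measured difference of 0.05 was -0.33 relative to the median gene. Erbb4 (Entrez gene 13869), the other neuregulin receptor, was absent on both arrays, with signals of 2.11 and 1.04 for its single set. A receptor not called present may still be expressed below what the probe set detects.

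**Figure D2:**
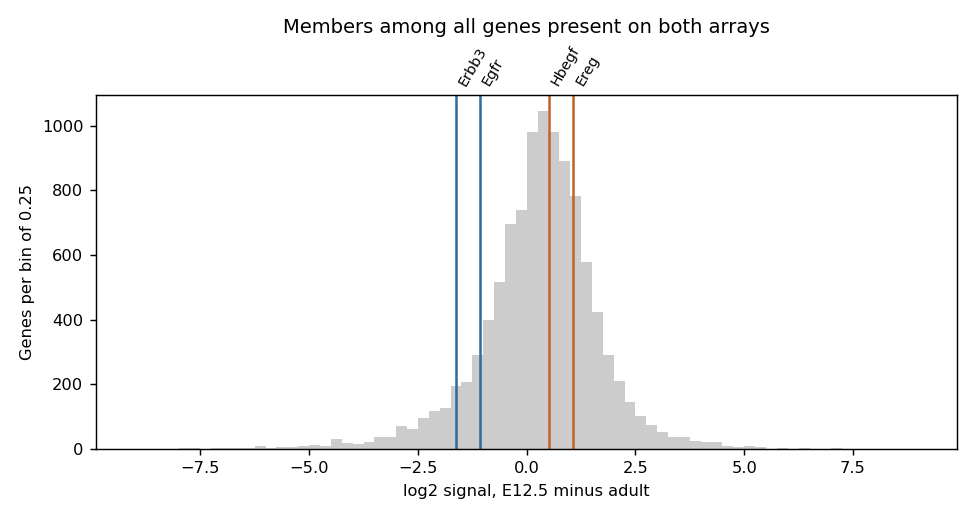
Distribution of the log2 difference, E12.5 minus adult, over the 10446 genes present on both arrays, in bins of 0.25, with the members present on both arrays as lines. Erbb3 (-1.63) and Egfr (-1.08) lie on the adult side of the distribution, Hbegf (0.50) near its middle and Ereg (1.07) on the E12.5 side.

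Hbegf (Entrez gene 15200), the heparin-binding ligand of Egfr and Erbb4, was the ligand with a present call on both arrays for more than 1 probe set. Set 1418350_at had 823 at E12.5 and 581 in adult, a difference of 0.50, and set 1418349_at had 582 and 422, a difference of 0.46. The sets differed by an SD of 0.03, and both placed Hbegf higher at E12.5, by 1.42-fold and 1.38-fold. Relative to the median gene the difference of the first set was 0.13, and 44.8% of genes present on both arrays lay further towards E12.5. Without scaling the same set was 1.06 higher at E12.5, past 2-fold.

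Tgfa (Entrez gene 21802), a ligand of Egfr, was past 2-fold towards adult by a lower bound. Set 1421943_at had 27.0 at E12.5, with an absent call, and 265 in adult, with a present call, so it was at least 9.82-fold higher in adult. The other 3 Tgfa sets were absent on both arrays. Of these, 1450421_at had 86.7 at E12.5 and 54.8 in adult, 1421942_s_at had 21.0 and 17.3, and 1425174_at had 11.1 and 18.7. The Tgfa difference thus rests on 1 of 4 probe sets, and no other set of the gene shows it in a detected signal.

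Ereg (Entrez gene 13874), epiregulin, was the only member at least 2-fold higher at E12.5. Its single set, 1419431_at, had 60.2 at E12.5 and 28.6 in adult, both called present, a difference of 1.07, or 2.11-fold. Relative to the median gene the difference was 0.70, under 2-fold, and 24.5% of genes present on both arrays lay further towards E12.5. It was also under 2-fold (0.77) with 16 units added to each signal.

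Btc (Entrez gene 12223), betacellulin, was detected in adult alone by both of its sets. Set 1435541_at had 28.9 at E12.5 and 47.3 in adult, at least 1.64-fold higher in adult. Set 1421161_at had 0.64 and 19.4, which against the lowest present signal at E12.5, 4.57, gives at least 4.24-fold. Both sets had the higher signal in adult, but only the dimmer one by 2-fold or more. With the sets averaged at their bounds, or relative to the median gene, Btc was past 2-fold (-1.40 and -1.09).

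Areg (Entrez gene 11839), amphiregulin, and Nrg1 (Entrez gene 211323), a ligand of Erbb3 and Erbb4, were absent on both arrays. The single Areg set, 1421134_at, had 20.2 at E12.5 and 1.02 in adult, and the single Nrg1 set, 1456524_at, had 9.12 and 2.10. No fold is given where neither array gave a present call.

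In RefSeq, Epgn (epigen, another ligand of Egfr), Ereg, Areg and Btc follow one another on chromosome 5 with 0 other protein-coding genes between neighbours. The 4 genes of this row did not share a detection pattern. Ereg was present on both arrays, Btc in adult alone, and Areg and Epgn on neither (the Epgn set had 11.8 at E12.5 and 23.4 in adult). The 250 bases before the start of Areg, a member of the row with no present call, are shown for comparison with those of Egfr (RefSeq, GRCm38.p6, chr5:91139349-91139598, plus strand). The capitals mark, in order, the cAMP response element TGACGTCA, the GC box GGGCGG and the TATA box TATAAA.
Areg: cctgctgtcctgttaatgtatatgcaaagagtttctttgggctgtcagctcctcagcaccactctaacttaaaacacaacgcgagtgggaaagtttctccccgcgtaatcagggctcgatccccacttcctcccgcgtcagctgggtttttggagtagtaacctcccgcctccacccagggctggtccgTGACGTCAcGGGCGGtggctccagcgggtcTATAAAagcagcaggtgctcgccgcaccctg
The matches lay at bases -61 to -54, -52 to -47 and -31 to -26, with no overlap between them. The Areg window held 57.2% G and C and 15 CpG pairs. RefSeq windows were also searched for Erbb2, Erbb4, Btc and Tgfa. The Tgfa window had 2 GC boxes, and the windows of Erbb2, Erbb4 and Btc had none of the 3 motifs. For Tgfa and Erbb4 the start used lies inside the gene. The Tgfa window (86194972 to 86195221) ran past the outer start of the gene at 86195038, and both GC boxes lay past it. The Erbb4 window (69108060 to 69108309, minus strand) lay wholly within the gene, whose outer start is at 69108576. A window without a match says only that these letters are not in it.

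**Figure D3:**
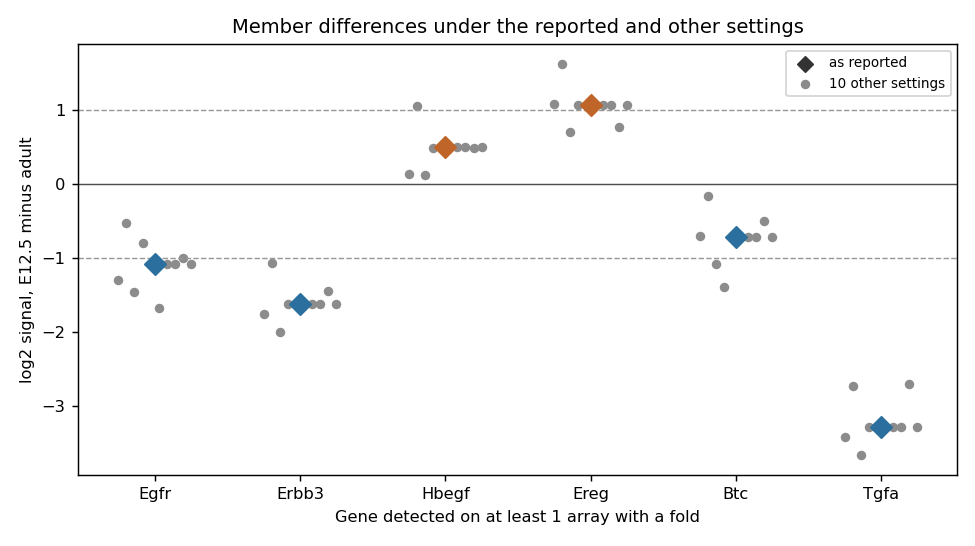
Log2 difference, E12.5 minus adult, of the 6 members with a fold, as reported (diamonds, coloured by side) and under 10 other settings (grey points); Btc and Tgfa are lower bounds, and dashed lines mark 2-fold. Each gene keeps its side of 0 under all settings, several of which could not move its value. Btc and Tgfa could not have been shown on the other side wherever the detection filter was kept. Egfr, Hbegf, Ereg and Btc cross a 2-fold line under some.

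The other genes of the pathway were taken as 7 lists with 76 genes, of which 68 were detected, beside 13165 of all 18666 genes. Of these 68, 16 passed 2-fold towards E12.5 and 9 towards adult. Their median difference was 0.32, and that of all detected genes 0.36. These are 23.5% and 13.2% of the detected pathway genes, beside the background of 29.1% and 17.0%. The lists were written with earlier results of these arrays known.

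Among the other ligands, Egf was higher at E12.5, with a signal of 113 against 36.9 in adult, 3.06-fold. Epgn, Nrg3 and Nrg4 had no present call. Nrg2 had marginal calls on both arrays for 1 of its 3 sets (146 and 166) and absent calls for the others. The 4 neuregulin genes thus gave no present call in either sort. Of the receptors that bind neuregulins, Erbb3 had a present call in both sorts and Erbb4 in neither.

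Genes of the ligand shedding list were detected in 8 of 9 cases, beside 13165 of all 18666 genes. Adam17, the main protease for TGF-alpha, HB-EGF and amphiregulin, had 487 at E12.5 and 477 in adult, and Adam10, the protease for EGF and betacellulin, had 2043 and 1361. Both lay within 2-fold, as did Rhbdf1, a carrier of Adam17 to the cell surface (1281 and 1950). Adam12 had 683 at E12.5 and was absent in adult, a fold of at least 15.1 towards E12.5. Adam15 was 4.85-fold and Timp3, an inhibitor of Adam17, 2.29-fold higher in adult. The Timp3 sets present on both arrays ranged from -1.20 to -0.48. The list median was -0.19 and turned to 0.37 without scaling.

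Among 12 receptor inhibitors and turnover genes, all detected, 3 passed 2-fold towards E12.5 and 1 towards adult. The exception towards adult was Lrig1, a membrane protein that promotes breakdown of the receptors, with 67.8 at E12.5 and 352 in adult (5.19-fold, with both sets in this direction). The ubiquitin ligase Cbl was 2.18-fold higher at E12.5 by its representative set, with another set within 2-fold (0.89). Cblb (2.10-fold) and Socs5 (2.26-fold) were higher at E12.5 by their representative sets, but each had another set, present on both arrays, that differed in direction (-1.11 and -1.28). Errfi1, an inhibitor that binds the Egfr kinase domain, had 1333 and 1195. The list median over genes with a fold was 0.38, the same as that of all genes present on both arrays. Relative to the median gene it was 0.002.

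The adaptors and the Ras-ERK cascade lay mostly within 2-fold, in 13 of 16 detected genes. Of all 13165 detected genes, 7099 lay within 2-fold or had no fold. The list median of 0.21 turned to -0.17 relative to the median gene and -0.14 after quantile normalization. The exceptions included the small GTPase Nras (3.30-fold), higher at E12.5. In adult the docking protein Gab2 was higher (2.36-fold, with another set within 2-fold at -0.64). Its relative Gab1, the docking protein best known for Egfr, had 1553 and 1734, and Mapk3 had 1551 and 1566. The PI3K-Akt arm lay within 2-fold in 8 of 10 genes, with a median of 0.04 that turned to -0.34 relative to the median gene and after quantile normalization, and to -0.13 with probe sets averaged. Its exceptions were the regulatory subunit Pik3r3, present at E12.5 alone and at least 5.68-fold higher there, and the catalytic subunit Pik3cb, 2.16-fold higher in adult.

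Genes induced by ERK signalling, many of which feed back on it, included 6 of 14 detected genes past 2-fold towards E12.5 and 1 towards adult, where the background over all genes is 29.1% and 17.0%. The list median was 0.57, beside 0.36 for all detected genes, and 0.20 relative to the median gene. The ERK phosphatase Dusp4 had 719 and 60.9 (11.8-fold), and Phlda1 had 1116 and 156 (7.17-fold). The Ras-ERK inhibitors Spred1 (3.05-fold), Spry1 (2.46-fold) and Spred2 (2.18-fold) and the transcription factor Etv5 (2.61-fold) were also higher at E12.5 by their representative sets. The lowest set present on both arrays was within 2-fold for 3 of them, with a log2 difference of 0.22 for Spred1, 0.57 for Spred2 and 0.27 for Etv5, and Spry1 had 1 set present on both. Ier3 was 2.91-fold higher in adult (1683 and 4892). Spry2 had 476 and 937 and Dusp6 had 182 and 310, within 2-fold and with the higher signal in adult. These genes follow ERK from any receptor, and whether EGF receptors bear on them was not tested.

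Surface proteins that bind the ligands or their receptors divided. Cd9, a tetraspanin that associates with the HB-EGF precursor, had 155 at E12.5 and 642 in adult (4.15-fold). Cd44, which carries heparan sulfate in some forms, was 3.71-fold and the heparan sulfate proteoglycan Sdc4 was 5.61-fold higher in adult. Its relative Sdc1 (6.09-fold) and the co-receptor Nrp1 (2.86-fold) were higher at E12.5, although the lowest Nrp1 set was within 2-fold (0.91). The median was -0.78 over genes with a fold. Without scaling it was 0.40, the value of Muc4, a gene present at E12.5 alone that had a fold only then. With no detection filter it was 0.076, with genes and sets not called present counted too. Both changes of sign thus came with a change in the genes or sets counted.

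**Figure D4:**
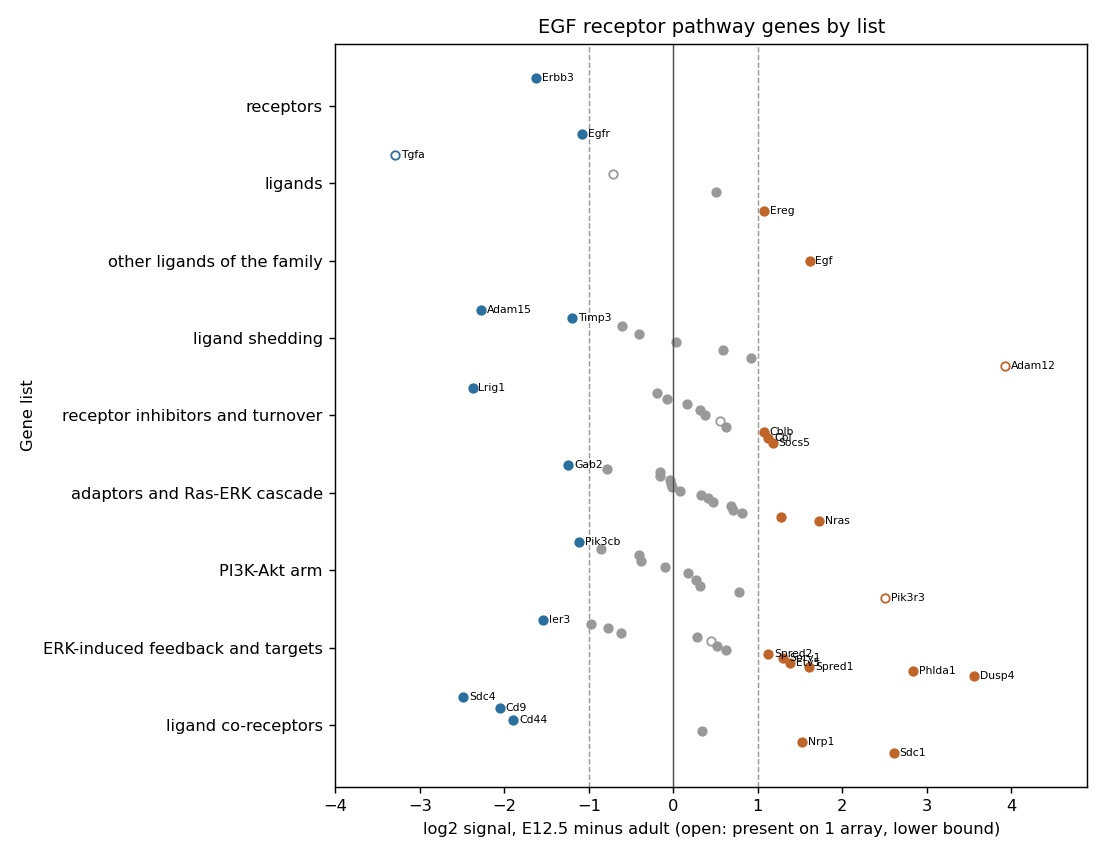
Log2 difference, E12.5 minus adult, of each detected gene with a fold, by list; open points were present on 1 array alone and are lower bounds, and dashed lines mark 2-fold. Named genes are at least 2-fold higher at E12.5 (orange) or in adult (blue). Most genes of the Ras-ERK and PI3K-Akt lists lie between the dashed lines. Of all 13165 detected genes, 7099 lay within 2-fold or had no fold.

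The sorted populations were checked with marker lists, as summed signals of detected markers. A sum is weighted towards the brightest probe sets, so it is compared between the arrays only and does not measure the share of a cell type. All 12 mesothelial markers were detected, with sums of 33213 at E12.5 and 87353 in adult. Of these, 7 were at least 2-fold higher in adult, among them the sorting antigen Msln (48.5 and 11835) and Nkain4 (absent at E12.5), 1 at E12.5, the sorting antigen Podxl (6069 and 1807), and 4 neither, among them Wt1 (2152 and 2228) and Upk3b (10114 and 18571). All 12 macrophage markers were higher in adult, with sums of 911 and 28015, and the resident macrophage lectin Clec4f had 5.14 at E12.5, with an absent call, and 4054 in adult. Of 8 endothelial markers 7 were detected. Clec4g (91.9 and 6765), Kdr (399.8 and 3857) and Stab2 (356 and 2485) were at least 2-fold higher in adult and made most of the sums of 1549 and 13784, while the other 4 lay within 2-fold, with Tek at 0.90 and Cdh5 at 0.23 towards E12.5. The 9 stellate and fibroblast markers divided, since 4 passed 2-fold towards E12.5 and 2 towards adult, around a median of 0.84, and their sums of 10699 and 24015 include 1493 and 18789 from Dcn. The 6 detected biliary markers of 7 had sums of 3952 and 6611, made mostly by Krt7 (3597 and 5585), which was within 2-fold. Of these 6 markers 1 passed 2-fold towards E12.5, Sox9 (at least 5.16-fold). Towards adult 2 passed it, Cftr (19.1-fold) and Spp1 (at least 17.3-fold). The 3 detected lymphocyte markers of 10 had 78.3 and 125. The sums of hepatoblast and hepatocyte markers, 10 of 12 detected, went the other way, with 30470 and 2838. Of these markers 9 passed 2-fold towards E12.5, and Cps1 (24.2, with an absent call, and 69.9) passed it towards adult. Sums of erythroid markers (7 of 10, 3534 and 252) and of neutrophil and mast cell markers (6 of 10, 2203 and 327) were also higher at E12.5. Kit, in the last list, was within 2-fold (0.94). Macrophages are a known source of Hbegf and Tgfa, and hepatocytes express Egfr and Erbb3. The adult signals of Tgfa, Egfr and Erbb3 stand beside 7 of 12 mesothelial markers and all 12 macrophage markers at least 2-fold higher in adult. Of 7 detected endothelial markers 3 were higher in adult and 4 within 2-fold. Of 10 detected hepatoblast and hepatocyte markers 9 were lower in adult and Cps1 was higher. Both arrays thus carried markers of cells other than mesothelium. The part of any of these cell types, mesothelium included, in the differences was not tested.

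**Figure D5:**
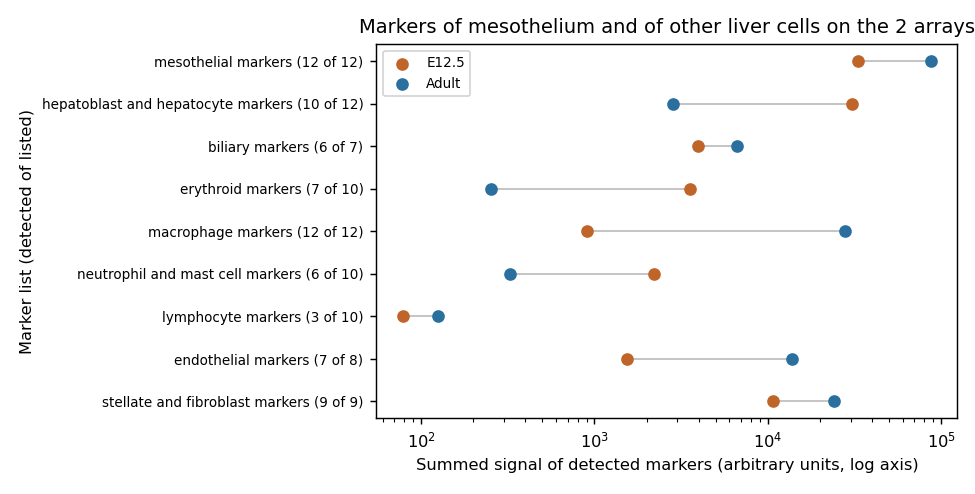
Summed signal of the detected markers of each list on the E12.5 array (orange) and the adult array (blue), on a log axis in arbitrary units, with the number detected of those listed. The macrophage sum was higher in adult, and the hepatocyte and erythroid sums were higher at E12.5. The endothelial sum is made mostly by 3 of 7 markers, the biliary sums mostly by Krt7, and the adult stellate and fibroblast sum mostly by Dcn.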

How the data were processed

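Per the file headers, the authors deposited a raw signal, a linear intensity, and a detection call, which is of other kind than a measurement, for 45101 probe sets on each of 2 arrays. The submitters' processing notes name Affymetrix Expression Console. How probes were summarised into sets is not given in the sources used here. When checked, the deposited ratio of adult to E12.5 equals the raw adult signal over 0.680 times the raw E12.5 signal (median raw signals 29.9 and 44.0), and 78 ratios stood at a floor of 0.01. That scaling was used, a shift of 0.56 on the log2 scale, with no pseudocount and no filter but the present call (51.9% of probe sets at E12.5, 52.2% in adult).

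Symbols came from the platform annotation, updated by Entrez number (34945 probe sets with 1 symbol), or, where that lists none, from the deposited table if RefSeq holds the symbol (1180, among them the Areg set). Probe sets with several symbols (932) or none (7980) were left unnamed. Where 1 array gave no present call, the fold is a lower bound against the higher of the dim signal and the lowest present signal of that array (4.57 at E12.5, 5.84 in adult). The number of arrays limits the precision, and no p-value was computed. All members were named, with the genes of the lists at least 2-fold apart (1 of them is not reported here). The rule also asked for the 3 genes nearest in signal to the leading members, which are not given because brightness cannot be compared between probe sets. The members and lists were chosen with earlier results of these data known. Python 3.11.15 with pandas 2.3.3 was used. The 2-fold calling was tested on simulated data with every call set to present, so the detection filter and the lower bounds were not tested.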

Additional observations from a re-analysis of the deposited data

How the results depend on the processing

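No paired analysis was possible because each group has 1 array. Over 10 alternatives the differences of Egfr, Erbb3, Hbegf, Ereg, Btc and Tgfa kept their direction. For Btc and Tgfa, present on the adult array alone, this was fixed in advance wherever the detection filter was kept. A lower bound that crossed 0 would have been dropped and not counted as turned. Those of Erbb3 (-2.00 to -1.07) and Tgfa (-3.67 to -2.71) also kept their side of 2-fold. Several alternatives could not move these values, since they left a gene's probe set and scaling as they were. Erbb3 and Tgfa changed only with quantile normalization, no scaling, the median gene set to 0 and the pseudocount. Averaging took in detected sets alone, so Tgfa sets absent on both arrays did not enter. The yardstick for a moved value was the SD between probe sets of a gene, 0.62 over 4422 genes, which is not an error between arrays. Of 189 recomputed values 25 moved, and 0 called values changed sign. Without scaling, Egfr was at -0.52 and Hbegf at 1.06, 2 members passed 2-fold towards E12.5, as did 6127 of all genes in place of 3833. Of pathway genes, 27 in place of 16 were then higher at E12.5 and 5 in place of 9 in adult, and the medians of ERK-induced genes and co-receptors were 1.13 and 0.40. The co-receptor median then took in Muc4, which had no fold with scaling. With the median gene set to 0, Ereg was at 0.70, Btc at -1.09 and the co-receptor median at -1.15, with 0 members, 2553 genes and 10 pathway genes higher at E12.5. Quantile normalization gave 14 pathway genes higher in adult and a co-receptor median of -1.11. Averaged probe sets gave Egfr -0.80 and Btc -1.40. A pseudocount of 16 gave Ereg 0.77 and 0 members higher at E12.5. With no detection filter 4 members were higher at E12.5, the added ones being Areg (4.30), Nrg1 (2.12) and Erbb4 (1.03), all absent on both arrays. It also gave 3673 genes higher in adult in place of 2233, and medians of 0.92 for other ligands and 0.076 for co-receptors, each with undetected genes counted. With marginal calls counted, the median of other ligands was 0.71 in place of 1.61. The value of 1.61 is that of Egf alone, the 1 detected gene of that list, and Nrg2 joined it through its marginal calls. Of all differences past 2-fold, 63.2% lay towards E12.5, and 53.6% after quantile normalization, 80.2% without scaling and 45.8% with the median gene set to 0, where the median difference was 0.12, 0.93 and 0 in place of 0.38.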
